A study of Mus musculus with 32 samples.

Results

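Border macrophages are the resident macrophages of the brain's edges, in the spaces around vessels, in the meninges and in the choroid plexus. They share the surface protein CD11b with microglia but differ from them in a set of scavenger receptors and secreted proteins, through which they take up material from blood and cerebrospinal fluid. Of their marker genes, 8, Mrc1, Cd163, Lyve1, Stab1, Siglec1, Cbr2, F13a1 and Pf4, were taken by name from the 18588 genes of a table of gene signals from forebrain microglia, and 8 of 8 were measured.

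Microglia RNA had been sequenced from female rTg4510 mice and female wild type (WT) mice at ages of 2, 4, 6 and 8 months (8 groups of 4 libraries). The rTg4510 mice carried 2 transgenes, human tau with the P301L mutation behind a tetracycline-responsive element and a tetracycline-controlled transactivator driven by the CaMKIIα promoter, so that mutant tau was made in forebrain neurons and could be repressed by doxycycline. The WT mice, labelled 129/FVB F1, were littermates with neither transgene, so that the difference between the genotypes holds the transactivator and the sites of insertion as well as tau. Each library came from the pooled forebrains of 8 to 10 animals, after removal of myelin and capture with CD11b MicroBeads. The beads bind microglia, border macrophages, monocytes and neutrophils alike, and all values are therefore averages over the captured cells. In such bulk samples fewer cells of a type and less RNA per cell cannot be told apart. Nor can either be told from a larger share of RNA from the other captured cells. The paper reports more microglia in the forebrain of the transgenic mice after the youngest age. It also reports more total RNA per microglia cell in them, already at the youngest age. The part of these differences in the marker signals was not tested. Of the 32 libraries 28 were used (groups of 4 at 2 and 6 months, groups of 3 at 4 and 8 months), because replicate 3 of both genotypes at 4 months and replicate 4 of both genotypes at 8 months had failed RNAseq QC in the study. No library is labelled with a batch.

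Values are log2 signals, normalized by the authors to the same median (5.63) in every library. Read totals are not part of the table and the depth behind a value is unknown, so that the number of libraries sets the precision. The lowest value of the 8 genes in a kept library was 5.35, and each value lay at least 3.48 above the lowest value of its library, so that none of the 8 genes was at the bottom of the table. The scale is not corrected for gene length, and levels are compared between libraries but not between genes. Microglia genes were high in every library, with P2ry12 between 10.06 and 11.06 and Tmem119 between 10.62 and 11.92 on the log2 scale. A gene was called when the linear model of limma over the 8 groups gave an FDR under 0.05 (Benjamini-Hochberg over 18588 genes) and a change above 1.5 fold.

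The 8 genes lie on 7 chromosomes, in the RefSeq annotation of GRCm38.p6. The scavenger and endocytic receptors are Mrc1, the mannose receptor CD206 (chr2:14229414-14332023), Cd163, the receptor for haptoglobin-haemoglobin complexes (chr6:124304636-124330529), Lyve1, a hyaluronan receptor that lymphatic endothelium also makes (chr7:110850607-110862953), and Stab1, which encodes stabilin-1, a receptor with many ligands that sinusoidal endothelium also makes (chr14:31139017-31168651). Siglec1 encodes sialoadhesin, a sialic acid-binding lectin that interferons induce (chr2:131067801-131086778). Cbr2 encodes a carbonyl reductase (chr11:120729485-120732025). Secreted or clotting proteins are made from F13a1, the A subunit of coagulation factor XIII (chr13:36867178-37050244), and Pf4, a chemokine best known from platelets (chr5:90772435-90773383).

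The RefSeq promoter table of GRCm38.p6 held 6 of the 8 genes (no entry for Lyve1 and Siglec1), and the 250 bases before the start of transcription given in that table were searched on both strands for 3 motifs of macrophage factors. For Stab1, Cd163 and Cbr2 that start belongs to a transcript that begins inside the outer bounds of the gene given above, so that the window reaches into them by a few bases. GAGGAA, the core of the PU.1 site (TTCCTC on the other strand), was found before 5 of the 6 genes, Mrc1, Pf4, Cbr2, F13a1 and Stab1, and in 23.3% of the 32851 promoters of the table. TGCTGA, part of the MAF recognition element, was found before Stab1, and in 16.1% of all promoters. GAAANNGAA, the interferon response element, was found before none of the 6 genes, and in 7.13% of all promoters. A match of letters is not a binding site, and no factor was measured at these windows. Shown are the windows of Stab1, the gene with the largest difference between genotypes, and of Mrc1 and F13a1, the pair whose signals followed each other most closely. They are written 5′ to 3′ on the strand of the gene, with matches to the motifs in capitals, at chr14:31168642-31168891 (minus strand), chr2:14229164-14229413 (plus strand) and chr13:37050245-37050494 (minus strand).
Stab1: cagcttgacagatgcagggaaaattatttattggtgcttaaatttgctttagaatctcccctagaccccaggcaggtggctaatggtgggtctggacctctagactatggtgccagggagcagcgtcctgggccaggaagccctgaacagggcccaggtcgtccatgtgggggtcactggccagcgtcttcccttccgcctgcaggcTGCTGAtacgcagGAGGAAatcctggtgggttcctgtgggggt
Mrc1: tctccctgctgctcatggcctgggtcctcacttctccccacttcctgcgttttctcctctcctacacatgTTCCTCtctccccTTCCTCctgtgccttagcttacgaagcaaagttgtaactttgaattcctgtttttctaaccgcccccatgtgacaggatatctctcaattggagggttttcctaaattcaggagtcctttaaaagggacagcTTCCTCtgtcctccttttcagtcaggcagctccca
F13a1: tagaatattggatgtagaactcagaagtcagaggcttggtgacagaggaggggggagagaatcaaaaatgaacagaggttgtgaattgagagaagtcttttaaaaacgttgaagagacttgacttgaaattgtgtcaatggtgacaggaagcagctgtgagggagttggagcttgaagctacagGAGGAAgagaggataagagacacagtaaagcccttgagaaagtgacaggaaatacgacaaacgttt
Counted back from the last base before the start in the promoter table (-1), the Stab1 window holds the MAF element at -43 to -38 and the PU.1 core at -30 to -25. In the Mrc1 window the PU.1 core stands 3 times on the opposite strand, and in the F13a1 window (the one of 2 listed for this gene that holds it) once, at -66 to -61.

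The signals of border macrophage markers were lower in rTg4510 than in WT libraries in most comparisons, and the difference was largest for Stab1. Lower means were found for 8 of 8 genes at 2, 4 and 6 months and for 7 of 8 at 8 months, the exception being Siglec1. The median log2 fold change of the 8 genes was -0.26, -0.52, -0.34 and -0.25 at 2, 4, 6 and 8 months, where the median of all genes was 0.014, -0.037, -0.035 and -0.014, and 47%, 53.9%, 53.4% and 51.4% of all genes were lower. Averaged over the 4 ages, 6 of 8 genes were lower at an FDR under 0.05 (22.4% of all genes were), from Stab1 at -0.70 to F13a1 at -0.30. The 8 genes varied together between libraries of a group (median Pearson r 0.784 over pairs of genes), so these counts are not counts of independent genes. Cbr2 (-0.21, 95% confidence interval -0.44 to 0.01) and Siglec1 (-0.10, -0.29 to 0.09) did not pass. Above 1.5 fold as well, 1 of the 8 genes was called lower in this average, Stab1, beside 7.03% of all genes. These directions depend on the median normalization. When each library was centred on 14 homeostatic microglia genes instead, the median of all genes moved to 0.50 in the average over ages, and the averaged differences turned positive for Cd163 (0.17), Mrc1 (0.19), Pf4 (0.16), F13a1 (0.23), Cbr2 (0.31) and Siglec1 (0.43), while Lyve1 (-0.052) and Stab1 (-0.18) stayed negative. This centring adds the same amount to the difference of every gene. The place of the 8 genes below the median of all genes is therefore unchanged by construction and is no second test. The homeostatic genes had themselves been lower in rTg4510 (median log2 fold change -0.54 in the average).

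**Figure D1:**
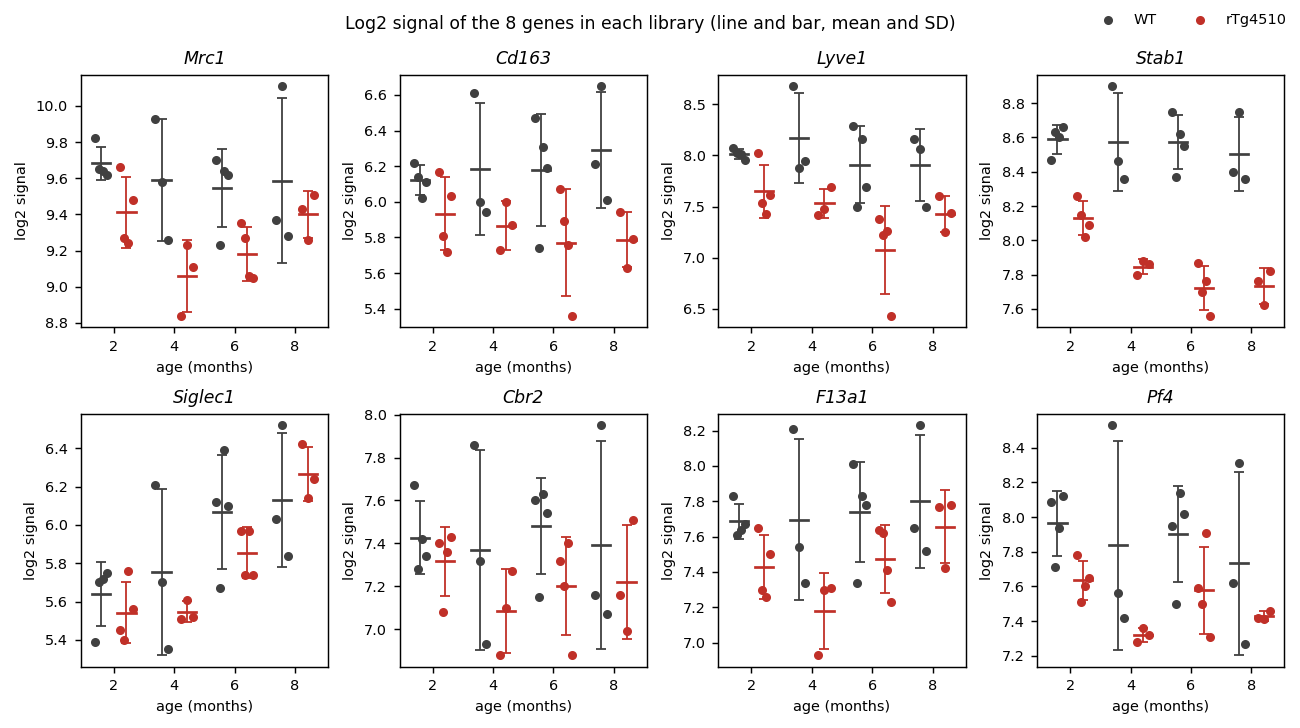
Log2 signal (vertical axes, each with its own range) of the 8 genes by age in months, with 1 point per library, a line at the mean and a bar for the SD of each group. The rTg4510 libraries (red) lie below all WT libraries (dark) of the same age for Stab1 at each of the 4 ages, while WT replicate 1 at 4 months and WT replicate 2 at 8 months form the upper end of the WT points in most panels.

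Stab1 separated the genotypes at every age. At 2 months its log2 signal was 8.47, 8.63, 8.60 and 8.66 in the 4 WT libraries and 8.26, 8.15, 8.02 and 8.09 in the 4 rTg4510 libraries. At 4 months it was 8.90, 8.46 and 8.36 in WT and 7.80, 7.88 and 7.86 in rTg4510. Every rTg4510 library thus lay below every WT library of its age, and so it did at the later ages. At 6 months the values were 8.75, 8.37, 8.62 and 8.55 in WT and 7.87, 7.70, 7.76 and 7.56 in rTg4510. At 8 months they were 8.40, 8.75 and 8.36 in WT and 7.76, 7.62 and 7.82 in rTg4510. Between genotypes Stab1 differed by -0.46 (log2 fold change, SE 0.107, FDR 0.00983 by limma) at 2 months, which is 1.38 fold and under the threshold for a call. It was -0.73 (SE 0.124, FDR 0.000133) at 4 months, -0.85 (SE 0.107, FDR 1.92e-06) at 6 months and -0.77 (SE 0.124, FDR 5.8e-05) at 8 months, each called lower. The call of 4 months was lost when WT replicate 1 of that age was left out (-0.57, FDR 0.00111, under 1.5 fold) and when only the 6 libraries of 4 months were fitted (FDR 0.0762). With centring on homeostatic genes the differences shrank to -0.27, -0.21 and -0.042 at 4, 6 and 8 months, with FDR values of 0.17, 0.188 and 0.828.

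Lyve1 was the other gene called at any age. At 6 months its log2 signal was 8.29, 7.50, 8.16 and 7.69 in WT and 7.38, 7.22, 7.26 and 6.43 in rTg4510. The groups did not overlap, and replicate 4 of rTg4510 stood well below the other 3. The difference was -0.84 (log2 fold change, SE 0.221, FDR 0.00542 by limma), and it stayed between -0.97 and -0.62 and called with any 1 library left out. The call was lost when only the libraries of 6 months were fitted (FDR 0.0805) and with centring on homeostatic genes (-0.20, FDR 0.525). At 4 months the values were 8.68, 7.88 and 7.95 in WT and 7.42, 7.48 and 7.69 in rTg4510, again without overlap (difference -0.64, SE 0.255, FDR 0.0779). At 2 months they were 8.07, 8.02, 8.01 and 7.96 in WT and 8.02, 7.53, 7.43 and 7.61 in rTg4510. One rTg4510 library, replicate 1, thus lay among the WT values (-0.37, SE 0.221, FDR 0.458). At 8 months they were 8.16, 8.06 and 7.50 in WT and 7.60, 7.25 and 7.44 in rTg4510, with 1 WT library inside the rTg4510 range (-0.47, SE 0.255, FDR 0.193). The average over ages was -0.58 (SE 0.119, FDR 0.000416), a 1.49-fold difference just under the threshold of 1.5 fold.

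In all, 0 of the 8 genes were called lower at 2 months (1 had an unadjusted p under 0.05, and the moderated test of limma also called 0), beside 0.403% of all genes. At 4 months 1 of 8 was called lower (Stab1, 4.33% of all genes), at 6 months 2 of 8 (Lyve1 and Stab1, 8.54% of all genes) and at 8 months 1 of 8 (Stab1, 5.37% of all genes). The count at 4 months rested on single libraries. It was 0 without WT replicate 1 of that age, 3 without WT replicate 4 (Mrc1 and F13a1 in addition) and 2 without rTg4510 replicate 4 of 6 months (Lyve1 in addition), a library that enters only through the shared spread. Complete separation of the libraries was more common. Every rTg4510 library lay below every WT library for 1 gene at 2 months (Stab1, 3.51% of all genes), for 5 genes at 4 months (Mrc1, Lyve1, Pf4, F13a1 and Stab1, 17.5% of all genes), for 2 genes at 6 months (Lyve1 and Stab1, 14.6%) and for 2 genes at 8 months (Cd163 and Stab1, 15.5%).

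**Figure D2:**
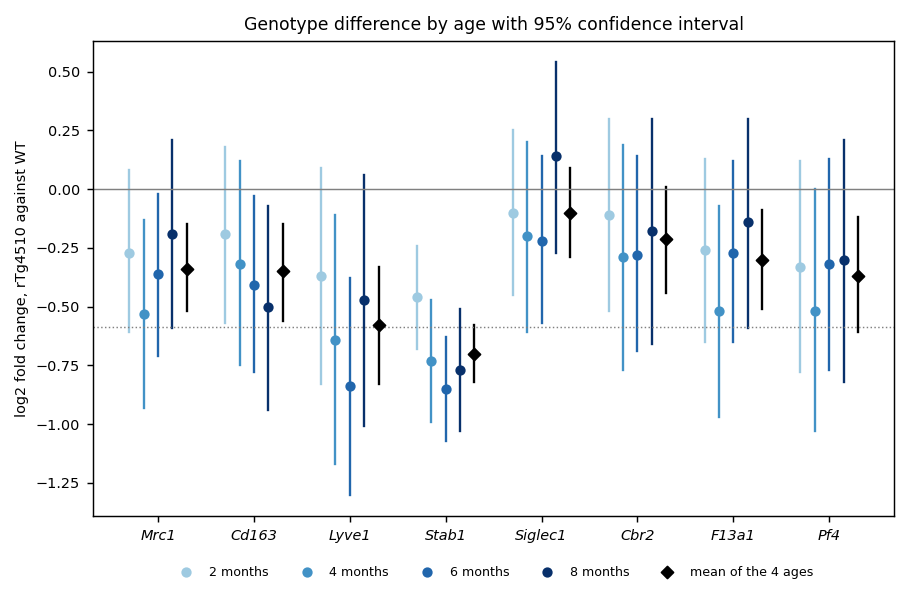
Log2 fold change of rTg4510 against WT (vertical axis) for the 8 genes, with its 95% confidence interval from the linear model, at 2, 4, 6 and 8 months (circles, light to dark) and averaged over the ages (black diamonds). The dotted line marks 1.5 fold lower. The intervals of Stab1 lie below 0 at each age, and the averages run from -0.70 for Stab1 to -0.10 for Siglec1 on the deposited scale, 6 of them turning positive when libraries are centred on homeostatic microglia genes.

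The mannose receptor Mrc1 and the haemoglobin receptor Cd163 were lower by less. Mrc1 was 9.82, 9.65, 9.64 and 9.62 in WT and 9.66, 9.27, 9.24 and 9.48 in rTg4510 at 2 months (log2 fold change -0.27, SE 0.166, FDR 0.473). At 4 months it was 9.93, 9.58 and 9.26 in WT and 8.84, 9.23 and 9.11 in rTg4510 (-0.53, SE 0.191, FDR 0.0502). The groups just failed to overlap, and the FDR missed the threshold narrowly. At 6 months Mrc1 was 9.70, 9.23, 9.64 and 9.62 in WT and 9.35, 9.27, 9.06 and 9.05 in rTg4510 (-0.36, SE 0.166, FDR 0.098). At 8 months WT replicate 2 (10.11) stood above the other WT libraries (9.37 and 9.28), which the rTg4510 libraries overlapped (9.43, 9.26 and 9.51). At 8 months Mrc1 thus differed by -0.19 (SE 0.191, FDR 0.521), and it turned to 0.072 without that WT library.

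Cd163 differed by -0.19, -0.32, -0.41 and -0.50 at 2, 4, 6 and 8 months, a widening series of means whose intervals overlapped. At 8 months its log2 signal was 6.21, 6.65 and 6.01 in WT and 5.94, 5.63 and 5.79 in rTg4510, and the groups did not overlap (SE 0.207, FDR 0.0835). Without WT replicate 3 of 8 months the difference was -0.65 and was called, which brought the number of called genes at that age to 2. Averaged over the ages the difference was -0.35 for Cd163 (SE 0.097, FDR 0.00503) and -0.34 for Mrc1 (SE 0.0895, FDR 0.00391).

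The genes of secreted and clotting proteins showed their lowest rTg4510 means at 4 months, as did Mrc1 and Cbr2. Pf4 was 8.53, 7.56 and 7.42 in WT and 7.28, 7.36 and 7.32 in rTg4510 at that age (-0.52, SE 0.249, FDR 0.152). The 3 rTg4510 values were close together, while WT replicate 1 lay nearly 1 log2 unit above the others, and without it the difference was -0.17. F13a1 was 8.21, 7.54 and 7.34 in WT and 6.93, 7.30 and 7.31 in rTg4510 (-0.52, SE 0.214, FDR 0.0891), and without the same WT library the difference was -0.26. At the other ages Pf4 differed by -0.33 to -0.30 and F13a1 by -0.27 to -0.14, none of them called. Averaged over the ages the difference was -0.37 (SE 0.116, FDR 0.0135) for Pf4 and -0.30 (SE 0.1, FDR 0.0192) for F13a1. The carbonyl reductase gene Cbr2 did not pass at any age and differed by -0.29 (95% confidence interval -0.77 to 0.19) at 4 months and by -0.28 (-0.69 to 0.14) at 6 months. At 8 months its WT values of 7.16, 7.95 and 7.07 overlapped those of rTg4510 (7.16, 6.99 and 7.51), and the difference of -0.18 turned to 0.10 without WT replicate 2.

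Siglec1 differed from the others in its course over age. Its log2 signal at 2 months was 5.39, 5.70, 5.72 and 5.75 in WT and 5.45, 5.40, 5.76 and 5.56 in rTg4510. At 8 months it was 6.03, 6.52 and 5.84 in WT and 6.42, 6.14 and 6.24 in rTg4510. In both genotypes every library of 8 months lay above every library of 2 months. Between these ages Siglec1 rose by 0.73 on the log2 scale in rTg4510 (SE 0.182, FDR 0.00607 by limma, called), the 1 gene of the 8 called in this comparison (5.72% of all genes were called higher). In WT the change was 0.49 (SE 0.182, FDR 0.136), and 0 of the 8 genes were called between 2 and 8 months (1 had an unadjusted p under 0.05, moderated test 0), beside 1.27% of all genes in either direction. The rise did not differ between genotypes beyond its error (0.23, 95% confidence interval -0.30 to 0.77, FDR 0.68). At 8 months the genotype difference of Siglec1 was 0.14 (-0.27 to 0.54), and its sign changed to -0.0067 when WT replicate 3 was left out. Centred on homeostatic genes it was 0.86 (FDR 0.00121 by limma, called higher), where the median of all genes was 0.71. Interferon-stimulated genes are given beside it, since Siglec1 is one of them in many cells. Of 15 genes of an interferon-stimulated list, 7 were called higher and 0 lower between 2 and 8 months in rTg4510, and 0 were called in WT. The median change of these genes was 0.49 in rTg4510 and 0.33 in WT. In the test of the difference between these changes, 0 of the 15 genes were called. Their part in the course of Siglec1 was not tested.

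Stab1 moved the other way with age. In rTg4510 its difference between 8 and 2 months was -0.40 on the log2 scale (SE 0.116, FDR 0.017, 1.32 fold and not called), and the 3 libraries of 8 months lay below the 4 of 2 months. In WT the same difference was -0.09 (SE 0.116, FDR 0.737). The genotype effect on Stab1 at 6 months minus that at 2 months was -0.39 (95% confidence interval -0.71 to -0.07), with an unadjusted p of 0.0184 and an FDR of 0.101 in the test of this difference. Over all 8 genes, 0 were called for a genotype effect that differed from that of 2 months at 4, 6 or 8 months (0, 1 and 0 had an unadjusted p under 0.05, moderated test 0), beside 4.66%, 8.89% and 6.7% of all genes. These comparisons share the libraries of 2 months. Centred on homeostatic genes, the change of Stab1 with age in rTg4510 turned to 0.35, where the median of all genes was 0.71.

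In order of their means, the 4 WT groups stood above the 4 rTg4510 groups for each gene but Siglec1. For Stab1 the order was WT at 2, 4, 6 and 8 months, then rTg4510 at 2, 4, 8 and 6 months, from 8.59 to 7.72. Among neighbours in it, only WT at 8 and rTg4510 at 2 months, and rTg4510 at 2 and at 4 months, had libraries that did not overlap. For Lyve1 the means ran from 8.17 (WT at 4 months) to 7.07 (rTg4510 at 6 months), for Mrc1 from 9.68 to 9.06, for Cd163 from 6.29 to 5.77, for F13a1 from 7.80 to 7.18 and for Cbr2 from 7.48 to 7.08, and neighbouring groups overlapped throughout. In Pf4 (7.96 to 7.32) the single pair of neighbours without overlap was rTg4510 at 8 and at 4 months. Siglec1 ran from 6.27 (rTg4510 at 8 months) through WT at 8 and at 6 months to 5.54 (rTg4510 at 2 months), so that the oldest and the youngest rTg4510 group formed its ends, again with overlapping neighbours.

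The 8 genes rose and fell together between libraries of the same group. Deviations of the libraries from their group means correlated with Pearson r of 0.545 to 0.949 over the 28 pairs of genes (median 0.784, 28 libraries, which share the same preparations and the same normalization). Closest were Mrc1 and F13a1 (0.949) and Cd163 and F13a1 (0.943), and least alike were Lyve1 and Siglec1 (0.545). Each gene followed the mean of the other 7 genes with an r of 0.755 (Siglec1) to 0.95 (F13a1). Over 13941 genes with a mean signal above the 25th percentile, the median r with the mean of the 8 genes was -0.00484, and 3.27% exceeded 0.5.

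Several libraries stood high or low in most of the 8 genes. WT replicate 1 of 4 months was highest of its group in 8 of 8 genes, by 0.47 above the group mean on average, and WT replicate 2 of 8 months in 7 of 8, by 0.40. The lowest of their groups in 8 of 8 genes were WT replicate 2 of 6 months (-0.36 on average), WT replicate 3 of 8 months (-0.31), rTg4510 replicate 2 of 8 months (-0.15) and rTg4510 replicate 1 of 4 months (-0.13). In WT replicate 4 of 4 months (-0.33) and rTg4510 replicate 4 of 6 months (-0.29), 7 of 8 genes were lowest. A tight group was WT at 2 months, whose 4 libraries lay between -0.05 and 0.06. Without both high WT libraries, a choice made after seeing the data, 0 genes were called at 4 months, 2 at 6 and 1 at 8 months, and Stab1 averaged -0.63.

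**Figure D3:**
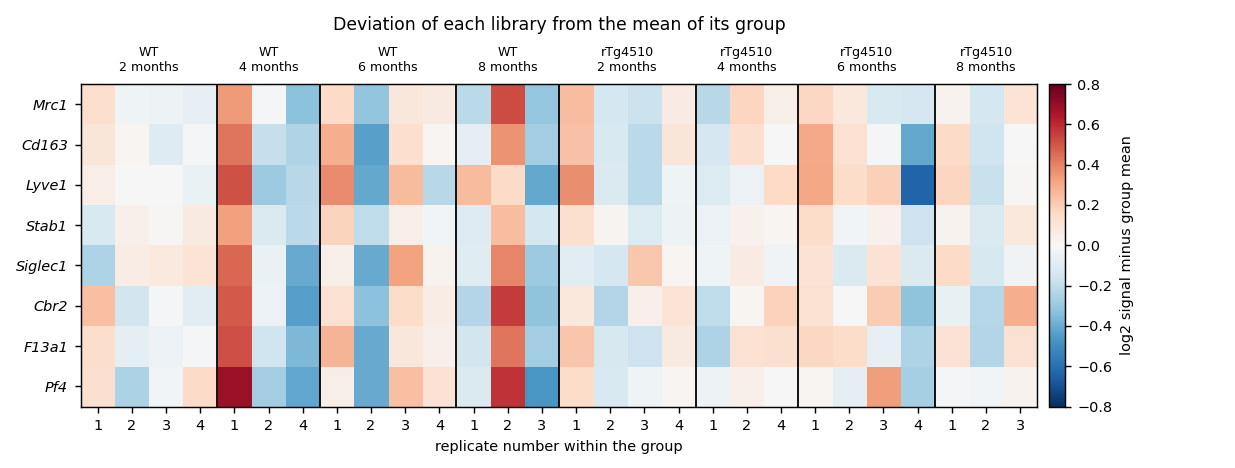
Difference of each library's log2 signal from the mean of its group (colour, red above and blue below) for the 8 genes (rows) in the 28 libraries (columns, by replicate number, groups parted by lines). Columns are mostly of 1 colour, as in WT replicate 1 of 4 months (mean 0.47) and WT replicate 3 of 8 months (mean -0.31).

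Ratios between markers within a library were compared as well. The log2 signal of Mrc1 was subtracted from that of each other gene in the same library, which removes what all markers share (Mrc1 was chosen as the denominator after the values had been seen, and 7 ratios were compared). The difference between genotypes was averaged over the 4 ages and compared with all 1960000 arrangements of the libraries within ages (two-sided exact permutation test, unadjusted). Relative to Mrc1, the difference of Stab1 was -0.36 (exact p = 2.65e-05) and that of Lyve1 -0.24 (exact p = 0.0125), lower in rTg4510 each at 4 of 4 ages. Siglec1 was higher by 0.24 (exact p = 0.00205) and Cbr2 by 0.12 (exact p = 0.0258), likewise at 4 of 4 ages. F13a1 (0.04, exact p = 0.23), Pf4 (-0.03, exact p = 0.68) and Cd163 (-0.02, exact p = 0.792) did not pass in the average. For Cd163 that average held opposite signs, since the difference was 0.21 at 4 months and -0.31 at 8 months (exact p = 0.1 each, the smallest possible with 3 against 3). These arrangements ignored the pairing of replicate numbers. With same-numbered libraries kept as pairs at 6 and 8 months (179200 arrangements, added after the values were seen), the exact p was 0.000257 for Stab1, 0.00669 for Lyve1, 0.00171 for Siglec1 and 0.0201 for Cbr2. Libraries of 2 and 4 months stayed unpaired there, although most same-numbered libraries of 2 months also deviated alike. At single ages, the difference of Stab1 from Mrc1 was -1.28 ± 0.138 in rTg4510 and -1.09 ± 0.177 in WT at 2 months (SD, n = 4 each). It was -1.67 ± 0.0211 in rTg4510 and -1.09 ± 0.24 in WT at 8 months (SD, n = 3 each), where the exact test cannot give less than 0.1. A ratio shows unequal change and not which of its genes changed, and it is the same under any centring of the libraries.

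**Figure D4:**
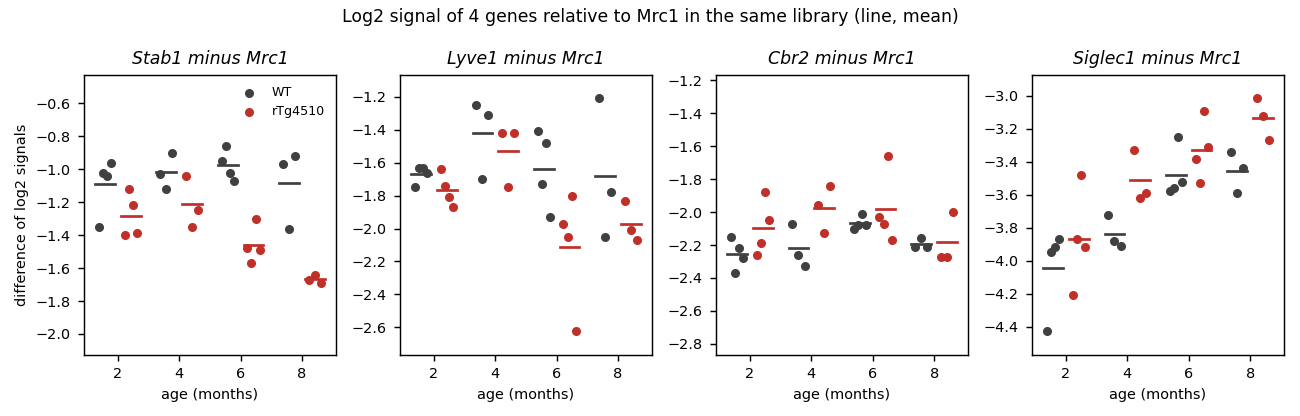
Log2 signal of Stab1, Lyve1, Cbr2 and Siglec1 minus that of Mrc1 in the same library (vertical axes, all spanning the same range) by age in months, with 1 point per library and a line at the group mean. Relative to Mrc1, the mean differences over the ages (rTg4510, red, minus WT) were -0.36 for Stab1, -0.24 for Lyve1 and 0.24 for Siglec1.

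Other genes that border macrophages are known to express moved in both directions. Of 30 further genes of these cells, 1, 9, 8 and 5 were called lower and 0, 1, 3 and 3 higher at 2, 4, 6 and 8 months (of all genes, 1.58%, 9.47%, 11.3% and 10.5% were called higher), with a median log2 fold change of -0.26, -0.43, -0.30 and -0.25. Slc40a1, the iron exporter ferroportin, was lower at 4, 6 and 8 months (log2 fold changes -0.90, -1.03 and -0.90), and so was Maf, a macrophage transcription factor (-0.73, -0.92 and -0.88). Microglia also express both, and neither followed the 8 genes within groups (r of 0.0506 and 0.156 with their mean). The chemokine gene Ccl24, which did follow them (r = 0.743), was lower too (-0.71, -0.71 and -0.97). Called higher were Nrp1, which encodes the co-receptor neuropilin-1 (1.02 at 6 months), the chemokine gene Ccl8 (1.62 at 6 and 1.21 at 8 months), and Colec12, a scavenger receptor (0.83 and 0.78). Homeostatic centring adds the same amount to every gene's difference at an age (it moves the median of all genes to 0.30, 0.42, 0.60 and 0.71), and the directions of all lists given here are those of the deposited scale. Colec12 followed the 8 genes closely within groups (r = 0.832) while its genotype difference had the opposite sign.

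A subset of border macrophages is known for MHC class II and Ccr2. Of 8 genes of this subset, 0 were called at 2 months, 1 higher and 1 lower at 4 months, 1 higher at 6 months and 2 higher at 8 months. The gene called higher at each of these 3 ages was Cd72, which encodes a B cell and macrophage receptor and not a class II molecule (1.95, 1.68 and 1.77). It followed the 8 markers weakly within groups (r = 0.28). Cd74, the invariant chain of class II, was higher by 0.71 at 8 months (SE 0.225, FDR 0.0241), and Ccr2, a chemokine receptor that monocytes share, was lower at 4 months (-1.05, SE 0.287, FDR 0.00998). Between 2 and 8 months 5 of the 8 were called higher in rTg4510 and 0 in WT, with median changes of 0.92 and 0.45. In the test of the difference between these changes 1 of the 8 was called higher. Within groups the mean of this list followed that of the 8 markers with an r of 0.672.

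Genes nearest to the 8 markers within groups, by the correlation of deviations over the 28 libraries, were the endocytic adaptor gene Dab2 (r = 0.934), the interferon-inducible gene Ifi203 (0.916), Tgfbi, which encodes a matrix protein (0.909), Itsn1, an endocytic scaffold (0.899), and Cfp, complement properdin (0.857), and 21 genes exceeded 0.8. Averaged over the ages Cfp was lower in rTg4510 (-0.35, SE 0.0956, FDR 0.00454), whereas Dab2 (-0.14, SE 0.0883, FDR 0.208), Ifi203 (-0.13), Tgfbi (-0.08) and Itsn1 (-0.15) did not pass. For single markers, Pf4 was followed most closely by the chemokine genes Ccl2 (0.903) and Ccl7 (0.871), Cbr2 by the lectin gene Cd209f (0.901), Stab1 by Tgfbi (0.903) and Dab2 (0.887), Lyve1 by Cd163 (0.874) and Rgs18 (0.842), and Siglec1 by Ms4a6d (0.827) and C4b (0.812). Mrc1 (0.949) and Cd163 (0.943) were each nearest to F13a1.

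Lists of other cell types that the preparation could hold were set beside these results, since Lyve1 and Stab1 are also made by endothelium and Pf4 and F13a1 by platelets. Of 10 neutrophil genes, 0, 0, 8 and 7 were called lower and 0 higher at 2, 4, 6 and 8 months, and S100a8 ranged from 5.21 to 8.54 over the libraries. The summed neutrophil signal at 6 months was 9.73 to 10.71 in WT and 8.98 to 9.24 in rTg4510. Of 11 platelet genes 6 were measured, and of these 0, 2, 3 and 1 were called lower. At 6 months their summed signal was 8.18 to 8.42 in WT and 6.93 to 7.41 in rTg4510. Gp9, 1 of the genes in this sum, had a mean of 7.20 in WT and 5.28 in rTg4510 at that age. A sum over so few genes is no measure of platelet number. Of 10 genes of blood endothelium 0, 1, 3 and 1 were called lower and 0, 1, 1 and 1 higher. At 6 months the log2 fold change was -1.92 (SE 0.224) for platelet Gp9 and -2.12 (SE 0.14) for endothelial Pecam1, which is also made by platelets and myeloid cells. Endothelial Flt1 was called higher at that age (1.89, SE 0.242), and the platelet gene Ppbp was not called (-0.74, SE 0.85, FDR 0.536). Of 12 monocyte genes 1, 2, 4 and 3 were called higher and 0, 2, 4 and 0 lower. Of 7 mural genes 0, 2, 2 and 2 were called higher and 0, 0, 0 and 1 lower. Of 8 fibroblast and leptomeningeal genes 0, 1, 2 and 1 were called lower, and of 3 lymphatic genes 0, 0, 1 and 0. Of all genes, 0.403%, 4.33%, 8.54% and 5.37% were called lower and 1.58%, 9.47%, 11.3% and 10.5% higher. The 6 choroid plexus epithelial genes gave 0 calls, with median log2 fold changes of 0.64, -0.59, -1.22 and -0.16. Their spread was wide (Ttr at 6 months -1.38, SE 0.676), so 0 calls does not show equal levels. The choroid plexus gene Ttr lay between 9.16 and 13.44, Cldn5 of blood endothelium between 4.36 and 8.09 and Prox1 of lymphatic endothelium between 5.12 and 6.35, so none of these defining genes was at the bottom of the table in every library. Ppbp of platelets ranged from 1.38 to 5.46, Ly6c2 of monocytes from 2.50 to 5.27 and Col1a1 of fibroblasts from 1.57 to 4.93. The lowest values of the libraries lay between 1.23 and 1.92. Of 15 genes of disease-associated microglia 8, 15, 15 and 14 were called higher.

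Within groups these lists followed the 8 markers to different degrees. The r of a list's mean with that of the markers was 0.903 for the 30 further border macrophage genes, 0.473 for monocyte genes, 0.5 for disease-associated microglia, 0.262 for blood endothelium, 0.0540 for fibroblasts, 0.0417 for mural cells, -0.0449 for neutrophils, -0.102 for choroid plexus epithelium, -0.186 for lymphatic endothelium, -0.198 for platelets and -0.335 for homeostatic microglia (28 libraries, a description). At 4, 6 and 8 months 0, 8 and 7 of 10 neutrophil genes and 2, 3 and 1 of 6 platelet genes were called lower in rTg4510. These 2 lists had an r near or below 0, and the disease-associated list one of 0.5. Their part in the genotype difference of the markers was not tested.

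**Figure D5:**
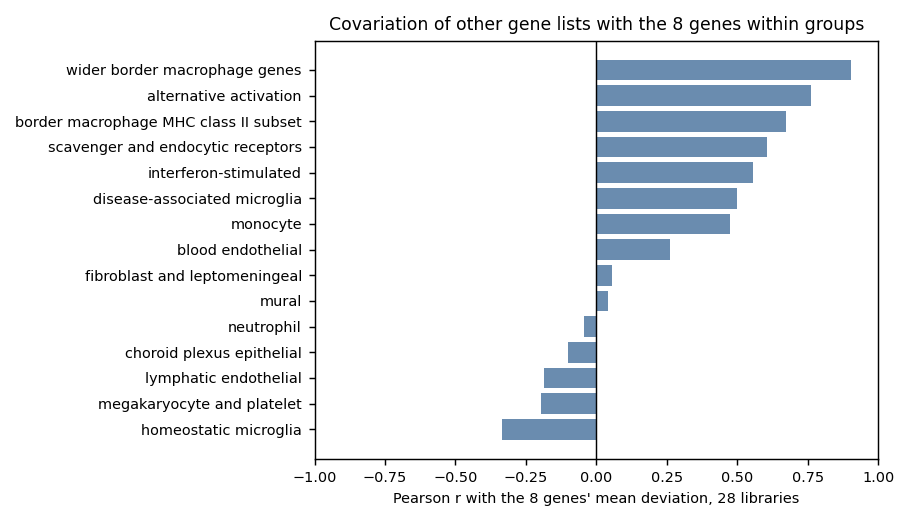
Pearson r (horizontal axis, -1 to 1) between the mean deviation of the 8 markers and that of 15 other gene lists over 28 libraries, after subtraction of the group means. Bars start at 0. The further border macrophage genes stand at 0.903 and the homeostatic microglia genes at -0.335.

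Lists of related functions held calls in both directions. They were not wholly outside the cell type. Mgl2 of the alternative activation list and Colec12 and Cd36 of the scavenger list are also among the 30 further border macrophage genes. Within groups their means followed that of the markers with an r of 0.762 (alternative activation), 0.605 (other scavenger and endocytic receptors) and 0.556 (interferon-stimulated genes). Of 13 other scavenger and endocytic receptors, 1, 5, 7 and 6 were called higher and 0, 1, 0 and 1 lower at 2, 4, 6 and 8 months, led by Clec7a (3.14 at 6 months) and Olr1 (2.90), while the lectin receptor Cd209a was lower at 4 months (-0.88, SE 0.217, FDR 0.00475) and at 8 months (-0.66, SE 0.217, FDR 0.0287). Of 12 genes of alternative activation, a macrophage state for which Mrc1 is a usual marker, 0, 1, 1 and 2 were called higher and 1, 4, 3 and 1 lower. Retnla, one of them, was lower at 4 months (-1.57, SE 0.517, FDR 0.0321) and Ccl22, another, higher at 6 months (1.68, SE 0.399, FDR 0.0024). Of the 15 interferon-stimulated genes 0, 4, 7 and 6 were called higher and 0 lower.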

How the data were processed

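The labels gave each library its genotype, age and number. The authors added up exon reads per library, dropped exons under 10 counts in over 80% of samples, derived 1 signal per gene by robust linear regression over its exons, and deposited median normalized log2 values. GRCm38 is named in the submitters' processing notes, and the aligner is not given in the sources used here. RefSeq (GRCm38.p6) gave a symbol for 17828 of 18588 Entrez numbers (95.9%).

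With limma 3.58.1 in R 4.3.3, a linear model with 8 group means and unmoderated variances (20 residual degrees of freedom) was fitted to every gene over 28 libraries, as the genotype by month model of the Methods. FDR values were adjusted per contrast over all genes, and no gene was filtered out. The fit was checked on simulated data. Libraries are pools of animals, so the p-values measure the spread between pools. Deviations of single genes from group means were correlated with those of the markers over genes above the 25th percentile. List means used all measured genes of a list, and the comparison of same-numbered libraries used all genes. Exact permutation tests used Python 3.11.15 with numpy 2.4.6 (pandas 2.3.3, scipy 1.17.1), and figures matplotlib 3.10.9. A list's summed signal is the log2 of the sum of its linear signals. Whether reads matching several genes were counted is not stated, so values of genes with close paralogs (Cd209a, Cd209f, Ccl2, Ccl7, Ccl8) are uncertain.

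The 8 genes and the other lists were chosen with earlier results of these data known. Of the other lists, genes were named when called at 1 or more ages, at most 3 up and 3 down per list by the size of their average difference, besides the defining gene of each cell type and the nearest genes by correlation. Same-numbered libraries of the genotypes deviated together at 6 months (r across genes of 0.131 to 0.153, other pairs up to 0.0913). So they did at 8 months (0.15 to 0.291, other pairs up to -0.0281). They were taken as pairs at these ages on the values alone. At 2 months most were about as alike (0.0649 to 0.167), but the lowest r lay under the highest of the other pairs (0.0816). At 4 months they gave -0.0999 to 0.124, and other pairs up to 0.154. No pairs were taken at 2 or 4 months, so a pairing at 2 months may have been ignored. Alternatives were moderated variances, all 32 libraries, only the groups compared, quantile normalization, centring on homeostatic genes, a filter on low values, a replicate block, and each library left out in turn.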

Additional observations from a re-analysis of the deposited data

Results flagged for a closer look

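Among the 32 groups of 4 libraries (8 genes, 4 groups), 2 single values stood apart by Dixon's criterion, and chance alone would mark about 1 in 20 groups. Mrc1 was 9.23 in WT replicate 2 of 6 months, where the other 3 libraries lay between 9.62 and 9.70 (gap over range 0.839, critical value 0.829). The same library was the lowest of its group for all 8 of 8 genes, including Cd163 (5.74) and F13a1 (7.34). Siglec1 was 5.39 in WT replicate 1 of 2 months, where the others lay between 5.70 and 5.75 (gap over range 0.847). In that library 5 of the 8 genes were the highest of the group, and Stab1 (8.47) was the lowest as well.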

How the results depend on the processing

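Of 1929 values recomputed for 54 results, 1835 kept their direction and side of the threshold, or for counts stayed within 1.5 times. Moderated variances, the filter on low values and the replicate block changed 0 calls of the 8 genes and reversed 0 values.

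The number of genes called lower at 4 months (1) was 3 with all 32 libraries, 2 with quantile normalization, and 0 with only the groups compared, with homeostatic centring, or without both high WT libraries. That of 6 months (2) was 1 with only the groups compared and 0 with homeostatic centring. At 8 months (1, Stab1) homeostatic centring left 0 genes called lower and called Siglec1 higher (0.86) instead. That of the average (1) was 2 with quantile normalization and 0 with homeostatic centring. Between 2 and 8 months homeostatic centring called 1 gene in WT (otherwise 0) and 5 in rTg4510 (otherwise 1). With each library left out in turn the count ranged from 0 to 3 at 4 months (0 without WT replicate 1, 3 without WT replicate 4, 2 without rTg4510 replicate 4 of 6 months), from 1 to 2 at 8 months (2 without WT replicate 3) and from 1 to 2 in the average. Averaged over ages, Lyve1 crossed 1.5 fold in 11 of these 28 fits.

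Homeostatic centring moved the median of all genes to 0.30, 0.42, 0.60 and 0.71 at 2, 4, 6 and 8 months. At 2 months it turned Mrc1 (0.017), Cd163 (0.092), F13a1 (0.026), Cbr2 (0.18) and Siglec1 (0.19) positive, at 4 months Cd163 (0.14), Cbr2 (0.17) and Siglec1 (0.25). At 6 months these were Mrc1 (0.28), Cd163 (0.23), Pf4 (0.32), F13a1 (0.37), Cbr2 (0.36) and Siglec1 (0.42). At 8 months they were Mrc1 (0.54), Cd163 (0.22), Lyve1 (0.25), Pf4 (0.42), F13a1 (0.58) and Cbr2 (0.55). All lay below the moved median, which follows from the construction, since every gene is shifted alike. The averages of Mrc1 (0.19), Cd163 (0.17), Pf4 (0.16), F13a1 (0.23), Cbr2 (0.31) and Siglec1 (0.43), and the changes of Stab1 from 2 to 8 months in rTg4510 (0.35) and WT (0.21), reversed as well. Without both high WT libraries Siglec1 at 4 months (0.025), Mrc1 (0.072), F13a1 (0.070) and Cbr2 (0.10) at 8 months and the average of Siglec1 (0.011) reversed. Single libraries gave ranges of -0.41 to 0.025 for Siglec1 at 4 months, and at 8 months of -0.34 to 0.072 for Mrc1, -0.28 to 0.07 for F13a1, -0.34 to 0.10 for Cbr2 and -0.0067 to 0.33 for Siglec1. Apart from what the construction of a setting shows, the cause was not tested.

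Counts over all genes moved too. The share of calls that were lower at 2 months was 20.4%, and 31.7% with quantile normalization. With homeostatic centring it was 1.66%, 3.01%, 3.03% and 1.66% at 2, 4, 6 and 8 months, against 20.4%, 31.4%, 43% and 33.8%, 2.67% in the average against 42.5%, and between 2 and 8 months 2.31% in WT against 58.1% and 0.872% in rTg4510 against 45.5%. With all 32 libraries 30 genes were lower and 135 higher at 2 months (75 and 293), and with only the groups compared 48, 395 and 474 were lower at 2, 4 and 8 months (75, 804 and 998) and 1166 higher at 4 months (1760). Homeostatic centring gave 28, 163, 276 and 175 lower and 1656, 5257, 8842 and 10358 higher genes at the 4 ages (75, 804, 1588 and 998 lower, 293, 1760, 2101 and 1952 higher), and 194 lower and 7079 higher in the average (1306 and 1768). The filter, which tests 13941 genes, left 767 lower in the average. Between 2 and 8 months in WT, 99 genes were higher and 137 lower, but 29 and 14 with all 32 libraries, 0 and 0 with only the groups compared (8 against 2 months in WT alone), 930 and 22 with homeostatic centring and 36 higher without both high WT libraries. In rTg4510 homeostatic centring gave 10460 higher and 92 lower (1064 and 888). Higher genes for the change of the genotype effect from 2 months numbered 531 at 6 and 374 at 8 months with all 32 libraries (1100 and 902), and 3239 and 4101 with homeostatic centring. With 3 or 4 pools per group and no read totals, differences under about 1.5 fold are poorly resolved for genes as variable as Lyve1 or Pf4.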

Other observations

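The 4 libraries that failed QC in the study entered no comparison of the report except the fits over all 32 libraries. In rTg4510 replicate 3 of 4 months the log2 signal was 4.14 for Siglec1, 4.72 for Cd163, 5.34 for Cbr2, 7.52 for Stab1 and 7.89 for Mrc1, each below every kept library, while Lyve1 (7.88) and Pf4 (7.84) were above the kept libraries of their group. In WT replicate 3 of 4 months Cd163 was 5.34 and Siglec1 6.72, and in replicate 4 of 8 months Siglec1 was 6.63 in WT and 6.77 in rTg4510, 3 values above all kept libraries for that gene. Stab1 kept the order of the genotypes in these libraries, with 8.90 in WT and 7.52 in rTg4510 at 4 months and 8.82 and 8.18 at 8 months.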
